A study of Mus musculus with 6 samples.

Results

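Transcripts of neutrophil granule proteins and of S100 alarmins were followed in cultured mouse macrophages. The 10 genes were S100a8, S100a9, Elane, Mpo, Prtn3, Ctsg, Ngp, Camp, Ltf and Lcn2, found by symbol among 56691 gene rows of each library's count table, and all 10 members had a row. They were chosen by name as transcripts that could mark granulocyte precursors left in a marrow culture. Bone marrow-derived macrophages (BMDM), phagocytes grown from marrow precursors, came from 3 mice called a, b and c. On day 6 of culture the cells received 2 µM thiothixene, an antipsychotic that blocks dopamine receptors, or the solvent DMSO for 24 h. Each mouse gave a library of each kind, so 3 thiothixene libraries stood against 3 DMSO libraries of total RNA. A library is named by its treatment and mouse, as in DMSO-b. The sources used here give no strain, sex, age or genetic change for the mice.

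Neutrophils store antimicrobial proteins in granules that are filled in sequence as the precursor matures in the marrow. Primary (azurophil) granules are loaded at the promyelocyte stage with myeloperoxidase and serine proteases, and secondary (specific) granules follow at the myelocyte stage with lactoferrin, cathelicidin and lipocalin. S100a8 and S100a9 encode the subunits of calprotectin, a calcium-binding and metal-binding complex that fills the cytosol of neutrophils and is also made by monocytes. Transcription of granule genes in myeloid cells is known to use PU.1 and members of the C/EBP family, and most granule transcripts are lost again as neutrophils mature.

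The promoter windows of members from each role are shown as a description of sequence only. Their part in the members' levels was not tested. Each window spans the RefSeq start (build GRCm38.p6) and lies mostly upstream of it, written in the direction of transcription. All 10 members had a window. Capitals mark matches on either strand to the C/EBP core TTNNGNAA, to the PU.1 core GAGGAA and to the C/EBP-ATF core TGATGNAA. No match shown overlaps another.
S100a8: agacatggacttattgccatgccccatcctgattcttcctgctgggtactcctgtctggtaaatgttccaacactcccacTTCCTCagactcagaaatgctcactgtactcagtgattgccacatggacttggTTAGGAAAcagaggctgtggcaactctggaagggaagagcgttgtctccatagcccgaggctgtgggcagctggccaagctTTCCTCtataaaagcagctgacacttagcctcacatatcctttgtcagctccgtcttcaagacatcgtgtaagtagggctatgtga
S100a9: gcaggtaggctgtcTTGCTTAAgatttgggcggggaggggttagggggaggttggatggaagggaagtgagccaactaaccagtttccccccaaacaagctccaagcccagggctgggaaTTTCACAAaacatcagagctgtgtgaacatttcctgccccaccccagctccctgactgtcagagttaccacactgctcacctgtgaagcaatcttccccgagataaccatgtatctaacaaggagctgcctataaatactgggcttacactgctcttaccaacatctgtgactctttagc
Elane: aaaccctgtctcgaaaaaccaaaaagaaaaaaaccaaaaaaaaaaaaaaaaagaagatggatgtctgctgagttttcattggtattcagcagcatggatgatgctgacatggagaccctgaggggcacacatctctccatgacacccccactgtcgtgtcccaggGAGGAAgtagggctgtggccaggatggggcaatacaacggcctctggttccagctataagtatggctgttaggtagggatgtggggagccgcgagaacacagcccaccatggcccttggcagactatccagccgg
Prtn3: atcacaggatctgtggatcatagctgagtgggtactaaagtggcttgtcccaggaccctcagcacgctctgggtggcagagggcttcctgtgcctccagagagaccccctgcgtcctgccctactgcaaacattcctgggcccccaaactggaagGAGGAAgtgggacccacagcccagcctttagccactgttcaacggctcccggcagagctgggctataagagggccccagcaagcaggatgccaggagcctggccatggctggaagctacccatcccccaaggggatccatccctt
Ngp: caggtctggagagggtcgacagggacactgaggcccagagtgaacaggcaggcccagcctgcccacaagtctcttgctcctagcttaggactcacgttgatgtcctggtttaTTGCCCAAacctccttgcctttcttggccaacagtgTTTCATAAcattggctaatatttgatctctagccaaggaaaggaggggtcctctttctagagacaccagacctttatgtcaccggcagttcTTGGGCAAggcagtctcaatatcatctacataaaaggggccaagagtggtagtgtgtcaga
These windows are chr3:90668821-90669120 on the plus strand, chr3:90695672-90695971 on the minus strand, chr10:79886062-79886361 on the plus strand, chr10:79879417-79879716 on the plus strand and chr9:110419558-110419857 on the plus strand. The PU.1 core was in the windows of 7 of 10 members, Lcn2, S100a8, Ltf, Prtn3, Elane, Mpo and Ctsg, and in 28.3% of all 32851 windows of this length. The C/EBP core was in those of 5 members, Lcn2, S100a8, S100a9, Ngp and Ltf, and in 40.7% of all windows. The C/EBP-ATF core was in 1, that of Ctsg, and in 3.97% of all windows. Ngp held 3 matches to the C/EBP core, and the Camp window held none of the 3 motifs. A match describes the letters and does not show that a factor binds there.

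By GENCODE on GRCm38 the members lie on 6 chromosomes, several of them as neighbours. Prtn3 (chromosome 10, 79874476 to 79883174) and Elane (79886247 to 79888215) are 3.07 kb apart on the plus strand. The Prtn3 window above, 79879417 to 79879716, lies inside this GENCODE gene, downstream of its annotated start. That of Lcn2 likewise lies inside its GENCODE gene. S100a8 (chromosome 3, 90668978 to 90670035, plus strand) and S100a9 (90692632 to 90695721, minus strand) are 22.6 kb apart. Neither pair has a protein-coding gene in between. Camp, Ngp and Ltf share chromosome 9, and Mpo, Ctsg and Lcn2 lie on chromosomes 11, 14 and 2. Prtn3 overlaps Plppr3, and Mpo an antisense gene, on the opposite strand. No source says whether counting used strand, so reads of these partners cannot be told apart and the levels of Prtn3 and Mpo are less certain.

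Before any comparison, 3 of the libraries stood apart in ways that touch these genes. Gene counts were 18548095 to 20264090 in the thiothixene libraries and 10472349 to 22297520 in the DMSO libraries, of which DMSO-b was the thinnest. In DMSO-c, 84.1% of genes with 10 to 99 counts had an even count, as did 62.3% in thiothixene-a, against 52.3% to 55.3% in the other four. Among even counts up to 30, the most common was 14 in DMSO-c (261 genes), 4 in thiothixene-a (682 genes) and 2 in each of the other libraries. The smallest member count, 10 for Ctsg, was in DMSO-c. The part of the even counts in the members' values was not tested.

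**Figure D1:**
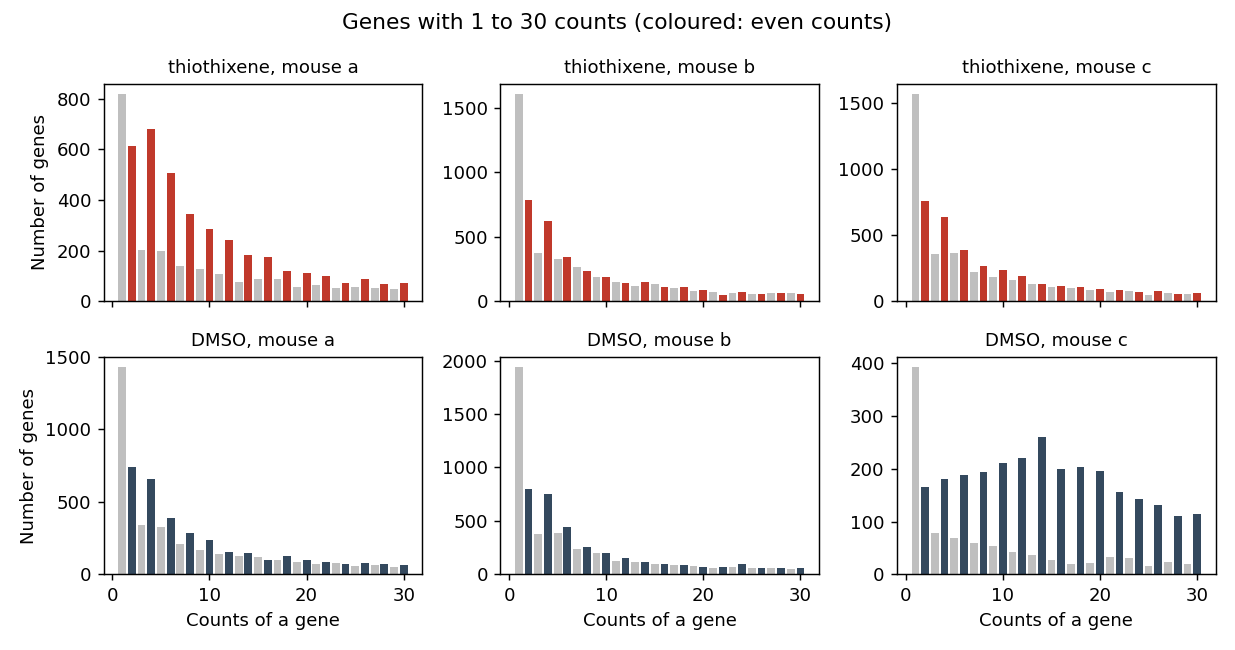
Number of genes (y axis) with each count from 1 to 30 (x axis) in the 6 libraries, thiothixene in the upper row and DMSO in the lower, with even counts coloured and odd counts grey. DMSO-c has its highest even bar at 14 counts, while 4 other libraries have it at 2 and thiothixene-a at 4.

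Transcripts listed here as macrophage markers were abundant in the libraries. Lyz2, lysozyme, ranked 3 and Cd68, a lysosomal glycoprotein, ranked 23 of 14565 genes by mean level per length (RPKM, CPM per kilobase of exon). The summed level of 14 macrophage identity genes was 14212 to 15695 CPM in thiothixene libraries and 13084 to 25176 CPM in DMSO libraries. CPM are counts scaled to library sizes that were adjusted by TMM, edgeR's normalization. Itgam, the CD11b gene, had 1 count in a thiothixene library and is listed at 0 in the others, so this defining marker cannot be read in these tables. The 10 members together made up 0.0388% to 0.0437% of gene counts in thiothixene libraries and 0.0431% to 0.0797% in DMSO libraries. Per 100 counts of macrophage identity genes there were 2.45, 2.46 and 3.05 member counts in thiothixene-a, -b and -c, against 2.71, 3.70 and 3.14 in the DMSO libraries. Lyz2 alone held 138043 of 322531 macrophage identity counts in thiothixene-a and 104315 of 225404 in DMSO-b, so this proportion leans on 1 gene. Whether Lyz2 reads came from macrophages alone was not tested.

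Markers of neutrophils ranged from few or no counts in a library to well expressed. Csf3r, the G-CSF receptor gene, averaged 74.0 ± 6.87 CPM with thiothixene and 74.3 ± 21.6 CPM with DMSO, and Mmp8, neutrophil collagenase, averaged 54.0 ± 9.45 and 58.8 ± 26.7 CPM. Ly6g, a neutrophil surface protein, had 0 counts in each thiothixene library, which allows a level of up to 0.142, 0.161 and 0.148 CPM for counting error only, and 10, 2 and 4 counts in DMSO-a, -b and -c. With so few counts Ly6g did not pass the expression filter, and it was not tested. Cxcr2, a neutrophil chemokine receptor, had 20, 23 and 35 counts in thiothixene libraries and 56, 6 and 22 in DMSO libraries. The precursor genes Ms4a3 and Cebpe (a transcription factor of secondary granule formation) stayed at or under 6.03 CPM in every library. In bulk RNA, fewer cells of a type and less RNA per cell cannot be told apart, so these values do not say which cells held the granule transcripts.

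Levels per length spanned over 2 orders of magnitude among the members. S100a9 averaged 201 ± 21.1 RPKM with thiothixene and 317 ± 173 RPKM with DMSO (SD, n = 3 each here and below), and ranked 148 of 14565 genes over all libraries. S100a8 averaged 124 ± 15.1 RPKM with thiothixene and 202 ± 118 RPKM with DMSO, rank 276. Ngp averaged 69.3 ± 4.47 RPKM with thiothixene and 97.3 ± 50.1 RPKM with DMSO, rank 571. These 3 genes stood above the rest, none of which averaged over 24.3 RPKM in either group. Ltf averaged 15.9 ± 3.38 RPKM with thiothixene and 24.3 ± 6.64 RPKM with DMSO. Lcn2 averaged 12.6 ± 1.66 RPKM with thiothixene and 20.3 ± 6.33 RPKM with DMSO. Camp averaged 8.49 ± 4.32 RPKM with thiothixene and 11.8 ± 8.33 RPKM with DMSO. The primary granule genes were the lowest. Elane averaged 4.81 ± 2.39 RPKM with thiothixene and 8.90 ± 6.12 RPKM with DMSO, and Mpo 4.45 ± 2.31 and 5.06 ± 1.86 RPKM. Prtn3 averaged 3.68 ± 2.15 RPKM with thiothixene and 4.22 ± 3.31 RPKM with DMSO, and Ctsg 1.53 ± 0.343 and 1.64 ± 1.69 RPKM. With thiothixene, each step of this order from Ltf down to Prtn3 was smaller than the larger SD of the neighbours. With DMSO this held for every step of the order except those from Ngp to Ltf and from Lcn2 to Camp.

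The S100 pair was the most abundant per length, and its subunit transcripts kept close to a fixed proportion. S100a8 measured 79.4, 81.2 and 98.4 CPM in thiothixene-a, -b and -c, and 85.7, 235.0 and 100.9 CPM in the DMSO libraries. DMSO-b stood far above the other five, whose levels interleaved between treatments. S100a9 measured 94.6, 103.3 and 116.5 CPM with thiothixene and 112.9, 270.0 and 113.7 CPM with DMSO, the same arrangement. The ratio of S100a8 to S100a9 counts stayed between 0.759 and 0.887 in all 6 libraries and was 0.871 in DMSO-b, where both were high. The pair made up 46.4%, 47.8% and 49.6% of the members' summed CPM in thiothixene libraries and 41.7%, 54.2% and 52.3% in DMSO libraries.

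Primary granule genes were low and scattered. Mpo, myeloperoxidase, which makes hypochlorous acid, measured 7.93, 14.1 and 23.6 CPM in thiothixene-a, -b and -c and 10.9, 23.7 and 17.4 CPM in the DMSO libraries. The groups covered nearly the same range. Elane, neutrophil elastase, measured 2.04, 5.80 and 6.36 CPM with thiothixene and 2.95, 14.97 and 8.36 CPM with DMSO, with mouse a lowest under both treatments. Prtn3, proteinase 3, measured 2.85, 6.01 and 10.3 CPM with thiothixene and 5.45, 13.7 and 2.73 CPM with DMSO. Here the lowest and the highest library were both DMSO libraries. Ctsg, cathepsin G, another serine protease, rested on 31, 24 and 40 counts with thiothixene and on 22, 33 and 10 counts with DMSO. The Elane to Prtn3 count ratio was 0.717, 0.964 and 0.620 with thiothixene and 0.541, 1.09 and 3.06 with DMSO, so these chromosomal neighbours did not keep a fixed proportion in DMSO-c. Whether reads are shared among these related proteases was not measured.

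Secondary granule genes, apart from Camp, had at least 586 counts in every library. Ngp, neutrophilic granule protein, a relative of the cathelicidins, measured 78.8, 89.5 and 85.9 CPM with thiothixene and 122, 178 and 56.2 CPM with DMSO. The coefficient of variation was 6.45% among thiothixene libraries and 51.4% among DMSO libraries, which lay on both sides of them. Ltf, the iron-binding lactoferrin, measured 67.8, 45.1 and 51.7 CPM with thiothixene and 87.3, 105.0 and 59.5 CPM with DMSO. The groups overlapped by a single pair, thiothixene-a and DMSO-c. Lcn2, lipocalin 2, which sequesters bacterial siderophores and which activated macrophages also make, measured 37.6, 32.6 and 28.9 CPM with thiothixene and 39.8, 71.8 and 48.0 CPM with DMSO. Lcn2 was the only 1 of the 10 members whose groups did not overlap, and 2.77% of tested genes had groups apart in this direction. No member had groups apart with thiothixene higher, as 3.88% of tested genes did. Camp, the cathelicidin precursor, measured 2.85, 7.19 and 9.27 CPM with thiothixene and 8.31, 15.5 and 2.94 CPM with DMSO, and its groups overlapped over most of their range. Ngp counts exceeded Camp counts by a factor of 9.26 to 27.7.

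**Figure D2:**
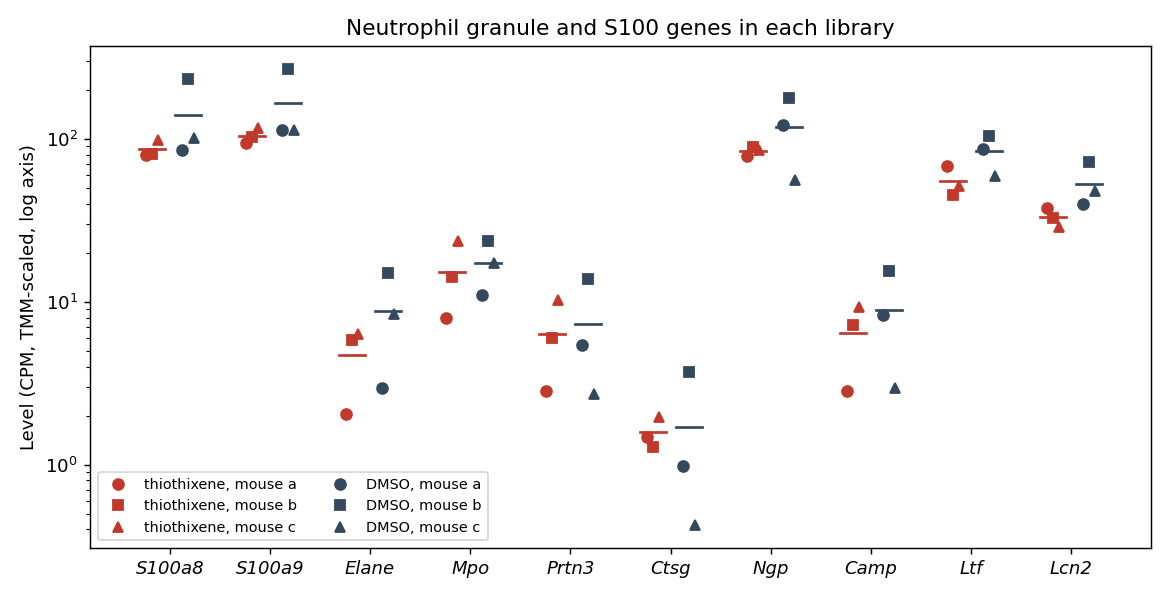
Level of each of the 10 genes (y axis, CPM on a log axis) in the 3 thiothixene libraries (red, left of each gene) and the 3 DMSO libraries (dark, right), with the mouse given by the marker and group means as bars. DMSO-b is the highest of 6 for every gene, and the groups overlap for every gene except Lcn2.

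None of the 10 members was called when thiothixene was set against DMSO in edgeR's quasi-likelihood test at an adjusted p of 0.05, where 0% of 14856 tested genes were called. All 10 passed the expression filter. At an unadjusted p under 0.05 there were 0 members, against 1.72% of tested genes, and DESeq2 (0.00815% of 24531 genes called) and limma-voom also called 0 members. Every adjusted p among the members was 0.9998, the smallest that any gene had. The 10 log2 fold changes were all below 0, with a median of -0.55, while 54.7% of tested genes were below 0 with a median of -0.04. The lowest unadjusted p was that of Lcn2 (0.0609, log2 fold change -0.69, SE 0.32, 95% interval -1.41 to 0.04), which ranked 311 of 14856. Ltf came next at -0.61 (SE 0.32, interval -1.35 to 0.12). S100a8 stood at -0.70 (SE 0.41, interval -1.65 to 0.24) and S100a9 at -0.66 (SE 0.39, interval -1.56 to 0.24).

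Among the remaining members, Elane had the most negative value, -0.88 (SE 0.66), with an interval of -2.40 to 0.64. Ngp stood at -0.49 (SE 0.41) and Camp at -0.46 (SE 0.66). Mpo and Prtn3 both stood at -0.18 (SE 0.48 and 0.68) and Ctsg at -0.06 (SE 0.84). The intervals leave room for differences of more than 1 log2 unit in either direction for Prtn3, Ctsg and Camp.

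The common direction depended on DMSO-b. That library was the highest of 6 for 10 of 10 members and for 33.9% of tested genes. Against the mean of the other DMSO libraries its level was 1.43-fold for Ltf, 1.63-fold for Lcn2, 2.52-fold for S100a8, 2.65-fold for Elane and 5.23-fold for Ctsg. Without DMSO-b 6 of 10 members stayed below 0 and the median was -0.09. S100a8 and S100a9 were then both at -0.11, Ngp at -0.07, Elane at -0.25, Lcn2 at -0.41 and Ltf at -0.42. Mpo (0.11), Camp (0.20), Prtn3 (0.64) and Ctsg (1.16) lay above 0. As with all 6 libraries, none was called (0% of 15469 genes). When thiothixene-a, DMSO-b and DMSO-c were all left out, 2 members were called lower with thiothixene in edgeR, among 6.99% of tested genes. They were Ltf (-0.84, adjusted p 0.000219) and Ngp (-0.47, adjusted p 0.0134). That fit, chosen after the data were seen, sets thiothixene-b and -c against DMSO-a alone, whose spread is assumed to be theirs, and mouse and treatment cannot be told apart in it.

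**Figure D3:**
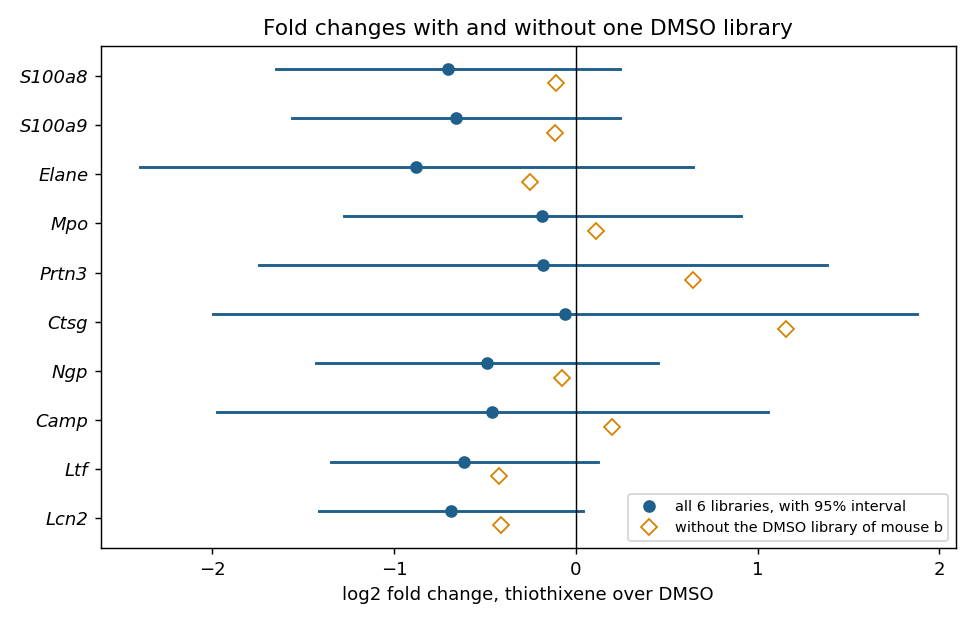
Log2 fold change of thiothixene over DMSO (x axis) for each gene (rows), as filled circles with 95% intervals from all 6 libraries and as open diamonds without DMSO-b. All circles are below 0 with intervals that cross it, and the diamonds of Mpo, Camp, Prtn3 and Ctsg lie above 0.

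The mice gave different pictures. For mouse b, all 10 members were lower in the thiothixene library, by a median log2 difference of -1.20, while 49.4% of tested genes were lower. For mouse a, 9 of 10 were lower, all except Ctsg, with a median of -0.41 and 52.1% of tested genes lower. For mouse c, 4 of 10 were lower, S100a8, Elane, Ltf and Lcn2, with a median of 0.24, and Ctsg, Prtn3 and Camp were 3.91-fold, 3.65-fold and 3.08-fold higher with thiothixene. Those 3 ratios rest on 10, 64 and 69 counts in DMSO-c, the library with the even counts. In all, 4 members were lower with thiothixene in 3 of 3 mice (S100a8, Elane, Ltf and Lcn2), as were 6.82% of tested genes. With the mouse as a replicate block, Lcn2 had a log2 fold change of -0.65, Ltf of -0.59 and S100a8 of -0.55, and 0 members were called.

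Transcript length and GC content moved with the same libraries. Of the members, 8 have a longest annotated transcript under 1.5 kb, and 3 (Elane, Mpo and Prtn3) have a GC content of 55% or more. S100a8, at 44.2%, falls under 45% GC, and S100a9 is at 45.1%. In DMSO-b, the 2901 tested genes with transcripts under 1.5 kb deviated from their own mean by a median of 0.56 log2 units and those of 4 kb or more by -0.51. Genes with at least 55% GC deviated by 0.68 in that library and by -0.84 in DMSO-c, while genes under 45% GC deviated by -0.50 and 0.48 in these libraries. The members' own median deviation was 1.14 in DMSO-b, -0.15 in DMSO-c and -0.40 in thiothixene-a. After a smooth trend on GC content and length was removed from each library, the median was 0.69 in DMSO-b, and that library remained the highest for 7 of 10 members. Its deviation rose from 1.17 to 1.42 for S100a8 and from 1.10 to 1.30 for S100a9, and fell for every other member. Elane, Mpo and Lcn2 were then highest in DMSO-c, at 1.61, 1.04 and 0.93. With such offsets in edgeR, chosen after the data were seen, 9 of 10 members stayed below 0, 0 were called, and S100a8 and Elane stood at -0.83 (SE 0.45) and -1.16 (SE 0.63).

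**Figure D4:**
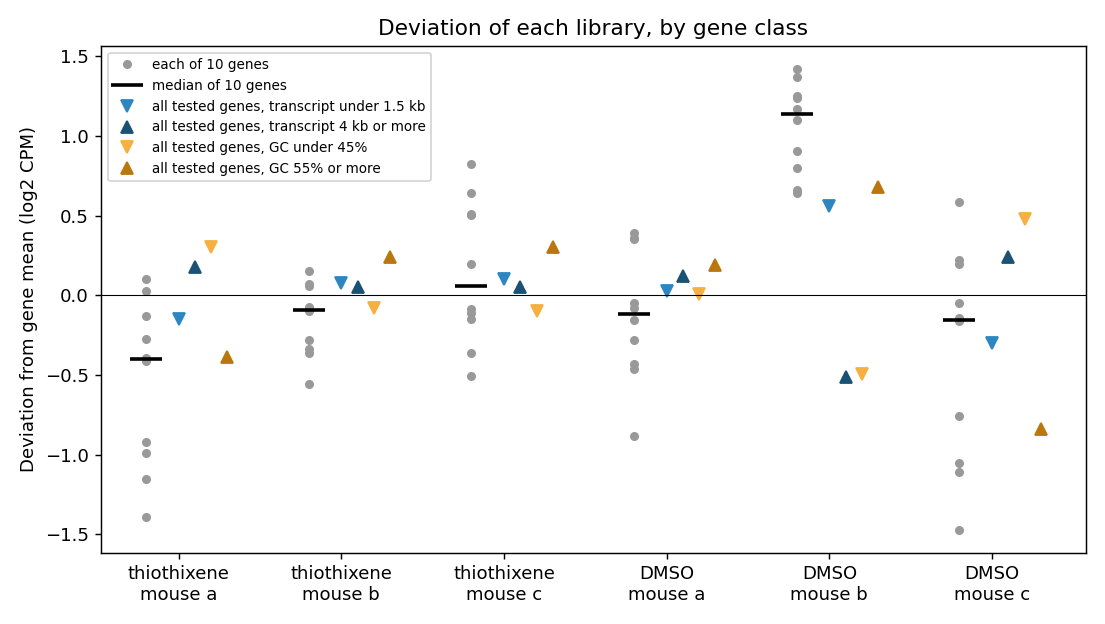
Deviation of each library from the gene's mean over 6 libraries (y axis, log2 CPM) for the 10 genes (grey points, black bar for their median) and the median of all tested genes in classes of transcript length and GC content (triangles), thiothixene libraries left. In DMSO-b the members' median of 1.14 exceeds the 0.56 of short-transcript genes and the 0.68 of GC-rich genes.

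The summed level of other S100 genes was also highest in DMSO-b, where S100a6 made up 611 of 1296 CPM. S100a11 was highest in DMSO-c, at 245 CPM against 213 CPM in DMSO-b. None of 6 tested genes of 11 listed was called, and all 6 were below 0 with a median of -0.72. Their summed level was 384, 447 and 452 CPM in thiothixene-a, -b and -c and 395, 1296 and 531 CPM in the DMSO libraries. S100a6 had a log2 fold change of -0.91 (SE 0.65), S100a11 of -0.98 (SE 0.46), S100a10 of -0.57 (SE 0.41) and S100a1 of -0.47 (SE 0.45). Without DMSO-b, 2 of 6 were below 0 and the median was 0.23. Counts of S100a8 and S100a9 per 100 counts of these other S100 genes were 45.3, 41.2 and 47.5 with thiothixene and 50.3, 39.0 and 40.4 with DMSO.

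Of 24 other neutrophil and granulocyte precursor genes, 20 were tested and 0 called, 3 above 0 and 17 below 0, with a median of -0.13. Without DMSO-b, 12 were below 0 and the median was -0.25. The most abundant were Cd63, a granule membrane protein that macrophages also carry, at 0.05 (SE 0.59), Chil3, a chitinase-like protein, at -0.50 (SE 0.27), Csf3r at -0.01 (SE 0.31) and Mmp8 at -0.12 (SE 0.37). Cd63 made up 338 of 608 CPM of the list's sum in thiothixene-a, 872 of 1225 CPM in DMSO-b and 141 of 450 CPM in DMSO-c. Mmp8 measured 61.7, 56.9 and 43.5 CPM with thiothixene and 46.3, 40.7 and 89.5 CPM with DMSO, so it was not highest in DMSO-b. Of 10 granulopoiesis transcription factors 0 were called, 4 above 0 and 6 below 0, and without DMSO-b 1 of the 10 was below 0. Spi1, which encodes PU.1, stood at -0.33 (SE 0.35), Cebpa at -0.42 (SE 0.71), Irf8 at 0.23 (SE 0.37) and Runx1 at 0.39 (SE 0.31).

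Genes that process or restrain granule proteases, and receptors for the secreted products, were also read. Ctsc, the dipeptidyl peptidase that activates Elane, Prtn3 and Ctsg products, measured 333, 284 and 270 CPM with thiothixene and 490, 443 and 594 CPM with DMSO. Its groups did not overlap, as held in this direction for 2.77% of tested genes. The log2 fold change of Ctsc was -0.78 (SE 0.27), with an unadjusted p of 0.0186 in edgeR, where 1.72% of tested genes were under 0.05. It did not pass the adjusted threshold. The protease inhibitor genes Serpinb6a and Serpinb1a stood at -0.46 (SE 0.32) and -0.29 (SE 0.44), and Cst3, cystatin C, at -0.55 (SE 0.54). All 6 tested genes of this list of 10 were below 0 and 0 were called. Without DMSO-b, 4 of the 6 were below 0. Among 8 tested receptor genes of 10 listed, 0 were called and 6 were below 0. Tlr4, a receptor for calprotectin, stood at 0.08 (SE 0.44), its co-receptor Cd14 at -0.50 (SE 0.50), Bsg at -0.32 (SE 0.38) and Lrp1 at 0.32 (SE 0.37). Fpr2, a receptor of the cathelicidin peptide, had 0 counts in all 6 libraries. Fpr1, also of this list, was picked after its values were seen. It measured 2.37, 0.859 and 2.27 CPM with thiothixene and 4.06, 3.80 and 6.40 CPM with DMSO. Its groups did not overlap, as held in this direction for 2.77% of tested genes. It had a log2 fold change of -1.37 (SE 0.55, unadjusted p 0.0371 in edgeR) and was not called.

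**Figure D5:**
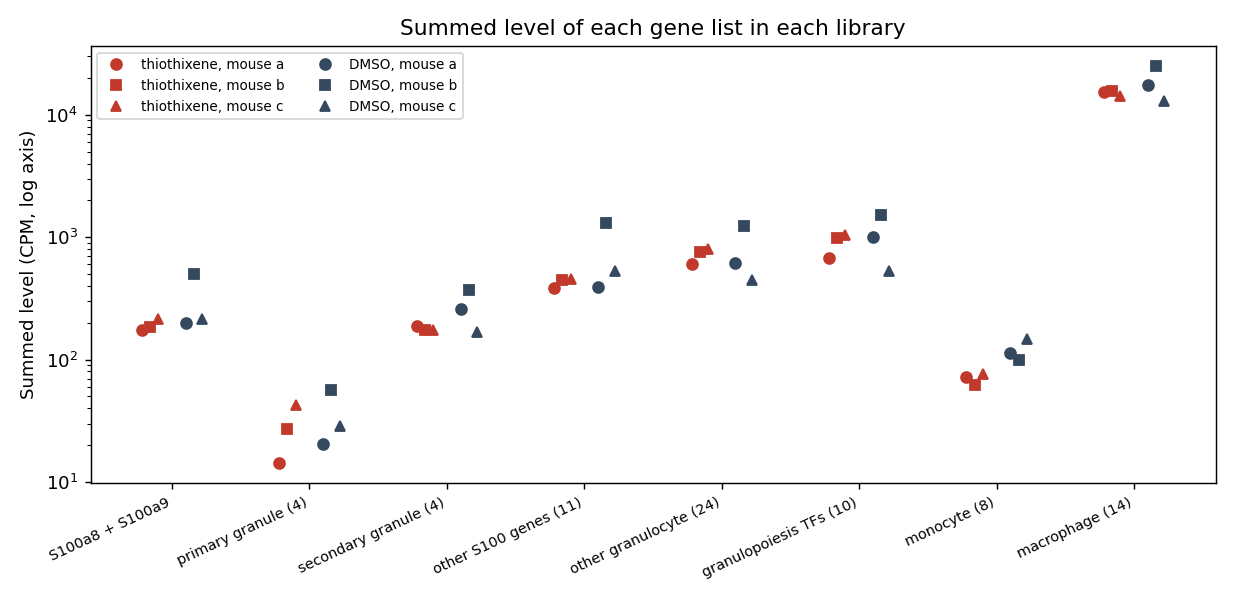
Summed level (y axis, CPM on a log axis) of the 3 member roles and of 5 other lists, with the number of genes in brackets, in the 3 thiothixene libraries (red, left) and the 3 DMSO libraries (dark, right). DMSO-b is highest for all lists shown except the monocyte list, where the 3 thiothixene libraries (61.5 to 75.9 CPM) lie below the 3 DMSO libraries (98.5 to 146 CPM). In the other granulocyte list, Cd63 alone holds 872 of 1225 CPM in DMSO-b.

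Of 13 tested macrophage identity genes 0 were called and 11 were below 0 (median -0.40), and without DMSO-b 8 were below 0. Of 8 monocyte genes 0 were called and 7 were below 0 (median -0.39), and without DMSO-b 6 were below 0 (median -0.40). Of 5 tested eosinophil genes 0 were called and 4 were below 0, and the list summed to 12.8 to 15.8 CPM with thiothixene and 27.8 to 33.6 CPM with DMSO. Ccr3 alone made up 10.1 of 12.8 CPM of that sum in thiothixene-a and 22.3 of 27.8 CPM in DMSO-a, and without DMSO-b the list's median fold change was -0.09, against -0.52 with it. The summed levels of the monocyte, eosinophil, B lymphocyte and protease activation and inhibitor lists were lower in every thiothixene library than in any DMSO library, and that of the T and NK lymphocyte list was higher. The margin was narrow for B lymphocyte genes (8.04 against 8.22 CPM) and for T and NK genes (11.11 against 11.03 CPM). Of single tested genes, 2.77% had groups apart with thiothixene lower and 3.88% with thiothixene higher. No such share was taken over sums of gene lists. F13a1 and Ccr2 made up much of the monocyte sum, with F13a1 at 32.1 of 71.8 CPM in thiothixene-a and 66.7 of 113.8 CPM in DMSO-a.

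Markers of several other marrow cells gave little signal. Mast cell and basophil genes summed to 2.36 to 4.24 CPM with thiothixene and 2.12 to 3.08 CPM with DMSO, with 3 of 8 at 0 in all libraries, among them Fcer1a. Erythroid genes summed to 1.28 to 3.66 CPM with thiothixene and 1.90 to 4.35 CPM with DMSO, with 4 of 7 at 0 throughout, and B lymphocyte genes to 5.32 to 8.04 and 8.22 to 14.5 CPM. These sums lay far below those of the members, 375 to 433 CPM with thiothixene and 410 to 932 CPM with DMSO. Dendritic cell genes summed to 21.4 to 33.7 and 10.8 to 22.4 CPM and T and NK lymphocyte genes, mostly Cd4, to 11.1 to 14.4 and 5.21 to 11.03 CPM, with thiothixene and with DMSO in that order. Stromal genes summed to 71.9 to 362 CPM with thiothixene and 121 to 223 CPM with DMSO, and platelet genes, almost wholly Pf4, to 293 to 495 and 339 to 1523 CPM. Genes of the cell cycle summed to 1946 to 2589 CPM with thiothixene and 2299 to 2619 CPM with DMSO. No gene of these lists was called. The part of these cells in the members' levels was not tested.

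The members correlated with each other over the 6 libraries, with a median Pearson's r of 0.66 over 45 pairs and a range of 0.01 to 0.99. This describes 6 libraries, whose points share depth and base composition, and the members' mean standardized level was 1.53 in DMSO-b and at most 0.07 in the others. The genes most like the members' mean standardized profile, among 9575 others with at least 10 CPM, were Smim19 (r of 0.99), Lgmn, Mrpl52, Cdk5rap3, Ppdpf, Pin4, Bin1, Ap2s1, Gm15564 and Ptpn18. Of the 9575 genes, 832, or 8.69%, had an r above 0.9. The median longest transcript was 1298 bases among the 10 and 3408 bases among all genes compared. Lgmn, which encodes the lysosomal protease legumain, measured 659, 808 and 879 CPM with thiothixene and 876, 1385 and 761 CPM with DMSO.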

How the data were processed

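The authors deposited a table per library of raw counts (whole numbers, with no normalization) by gene, and 5 further rows that name no gene. The submitters' processing notes name mm10 and these tools, without roles: STAR 2.7.11b, Trim Galore 0.6.10, FastQC 0.11.8 and DESeq2 1.44. How reads were counted, on which strand and with which annotation is not stated in them. Reads assigned to no counted feature were 43.1% to 44.4% of all counts and unaligned reads 1.85% to 4.98%, and neither library sizes nor tests used those 5 rows.

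Symbols, positions, exon lengths and GC content came from GENCODE vM21 (GRCm38), with identifiers matched without version (52073 matched, 4618 did not). Thiothixene was tested against DMSO with edgeR 4.0.16 in R 4.3.3, by robust quasi-likelihood fits with treatment alone in the model, after TMM scaling and edgeR's filter on low counts. P-values were adjusted over 14856 genes by Benjamini-Hochberg. An SE is the size of the log2 fold change divided by the root of the F statistic. RPKM divide CPM by exon length. The steps were tested on simulated data. Differences within a mouse are of log2 CPM with a prior count of 2.

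Libraries of a mouse come from the same animal, per the titles, so the mouse pairs them. Their departures from the mean of their treatment had correlations of -0.131, 0.318 and -0.301 for mice a, b and c. Alternatives were the mouse as a block, RLE, other filters, DESeq2 1.42.0, limma-voom 3.58.1, a looser threshold and leaving out libraries or mice, and, chosen after seeing the data, GC and length offsets, library quality weights and fits without libraries that stand apart.

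The members, the 19 gene lists (3 of them the members' roles) and the motifs were chosen with earlier results of these data known. Named were all members, of each other list the called genes or else up to 4 of highest mean CPM, and the 10 genes most like the members. Not all of the lesser marker genes so named are given. Ly6g, Cxcr2, Ms4a3, Cebpe, Itgam, Fpr2 and Fcer1a were named after their values were seen, as defining markers. Per the labels, each replicate is another mouse.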

Additional observations from a re-analysis of the deposited data

How the results depend on the processing

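The count of 0 members called held in 20 of 21 settings other than the one reported. The exception, chosen after the data were seen, left out thiothixene-a, DMSO-b and DMSO-c and called 2 members, Ltf (-0.84) and Ngp (-0.47), among 1105 genes, 6.99% of those tested, and 14 of the listed genes. Calls over all genes were 1 without a low-count filter, 2 in DESeq2 and 25 with library quality weights, which called 1 listed gene, F13a1, and 0 in every fit that left out a single library or mouse. The replicate block changed no member's call.

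Of 200 log2 fold changes of members, 168 kept direction and side of the threshold, 30 changed sign and 2 were the calls above. S100a9, Ngp, Ltf and Lcn2 never changed sign. Values that did were, with the replicate block, Ctsg 0.42. In limma-voom they were Prtn3 0.10 and Ctsg 0.76, with offsets Ctsg 0.078 and, offsets and replicate block together, 0.39. With quality weights they were Elane 0.70, Mpo 0.43, Prtn3 0.34 and Ctsg 0.61. Without the 3 libraries they were S100a8 0.073, Elane 1.05, Mpo 0.79, Prtn3 0.59 and Ctsg 0.74, and with DMSO-b and -c left out S100a8 0.035, Elane 0.71, Mpo 0.50, Prtn3 0.25 and Ctsg 0.70. With each library or mouse omitted in turn, values ran over -0.64 to 0.16 for Mpo, -1.09 to 0.68 for Prtn3, -0.71 to 1.28 for Ctsg and -1.23 to 0.20 for Camp. The values above 0 came without DMSO-b or mouse b as a whole, without thiothixene-a (Mpo 0.13, Prtn3 0.17), or without thiothixene-b (Ctsg 0.060). The cause was not tested. Fits with DMSO-a as the lone DMSO library assume that it varies like the thiothixene libraries. The log2 ratio of levels is the difference between groups in mean log2 level, a measure other than the edgeR fold change. For Ctsg it was 0.43, where edgeR gave -0.06, so its sign depended on the measure. Scaling by plain totals or by macrophage identity counts shifted the log2 ratio of levels by the same amount for every gene. The shift was below the spread of all 10 members, which is not 10 separate checks. With macrophage identity counts the ratio went from -0.56 to -0.31 for S100a8 and from -0.54 to -0.28 for S100a9. It went from -0.26 to -0.0014 for Mpo, from -0.07 to 0.18 for Prtn3 and from 0.43 to 0.68 for Ctsg. Depth limits Ctsg most, with 10 to 40 counts per library.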

Other observations

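Retnlg, a resistin-like gene of neutrophils, was picked after its values were seen. It measured 0.570, 1.72 and 2.61 CPM in thiothixene-a, -b and -c and 3.44, 4.91 and 5.80 CPM in the DMSO libraries. Its groups did not overlap, as held in this direction for 2.77% of tested genes (log2 fold change -1.53, SE 0.63, unadjusted p 0.0395 in edgeR, not called). It rested on 12, 32 and 53 counts with thiothixene and 77, 44 and 136 counts with DMSO.

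Chemokine receptor genes Ccr3 and Ccr2 had groups that did not overlap, with thiothixene lower, as did 2.77% of tested genes. Ccr3, the eotaxin receptor gene, measured 10.1, 4.89 and 9.91 CPM with thiothixene and 22.3, 16.8 and 28.5 CPM with DMSO (-1.44, SE 0.40, unadjusted p 0.0070 in edgeR). Ccr2, a monocyte chemokine receptor gene, measured 16.2, 11.01 and 14.6 CPM with thiothixene and 24.7, 18.2 and 38.3 CPM with DMSO (-0.96, SE 0.37, unadjusted p 0.0316). Neither was called, and in both DMSO-b was the lowest DMSO library, unlike for the 10 granule and S100 genes. Both were singled out after their values were seen. The eosinophil granule genes Prg2 and Ear2 stood at -0.52 (SE 0.68) and 0.42 (SE 1.25).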
